A study of Homo sapiens with 30 samples.

Results

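Small nucleolar RNA (snoRNA) host genes are genes whose introns carry snoRNAs. The members were the rows of the count table named SNHG followed by a number, together with GAS5, ZFAS1 and EPB41L4A-AS1, which made 31 of the 60664 genes in the table. A snoRNA is cut out of the intron after splicing and stays in the nucleolus, where box C/D snoRNAs guide methylation and box H/ACA snoRNAs guide pseudouridylation of ribosomal RNA. The related scaRNAs do the same for spliceosomal RNA in Cajal bodies. What is left of the host transcript is a spliced, mostly non-coding RNA that reaches the cytoplasm, and several such RNAs are known to be bound by ribosomes and degraded by nonsense-mediated decay. Several, like ribosomal protein mRNAs, are also known to begin with a run of pyrimidines, the 5′ terminal oligopyrimidine (TOP) motif.

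Both cell lines studied derive from Flp-In T-REx HEK293, a human embryonic kidney line in which tetracycline turns on an inserted gene. The inserted gene encodes TIA1a, which binds RNA and nucleates stress granules, with a GFP tag. It is wild-type in the WT line and has the Welander distal myopathy mutation in the WDM line, and the labels name no deletion of the cells' own TIA1 in either. Cytosol RNA was sequenced from untreated, tetracycline-treated and tetracycline plus arsenite-treated cells (0.5 mM sodium arsenite for 60 min), and granule RNA from the tetracycline-treated cells of each line with and without arsenite, in 10 groups of 3 libraries. The granule fraction is the high-speed pellet recovered through the GFP tag, so it depends on a tagged, induced protein in a cell line and not on muscle. The label calls it a stress granule also where no arsenite was given, and the untreated cells have no granule libraries. Nothing in the labels says that replicates were separate cultures, so p-values measure the spread between libraries, which may be technical. In bulk libraries of this kind, fewer cells that hold an RNA and less of it per cell cannot be told apart.

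Total counts ran from 7971585 to 18884843 in the 18 cytosol libraries. In the granule libraries they ran from 5906167 to 25176605 without arsenite in WT, from 10085902 to 16335526 in WDM, and from 18864056 to 27419145 with arsenite. Granule libraries with arsenite were therefore mostly deeper. Levels are given in CPM, the counts of a gene relative to the library's total, scaled by TMM factors, and differences as log2 fold changes from edgeR's quasi-likelihood test, called at an adjusted p (Benjamini-Hochberg over all genes tested) under 0.05. The epithelial genes KRT8, KRT18, KRT19 and EPCAM were present in every library (at least 11.8 CPM) and CDH1 was low at 3.56 to 10.8 CPM. The mesenchymal gene VIM was present at 156 CPM or more, HBB had 0 counts, and PTPRC, ALB and PECAM1 did not exceed 13 counts in any library.

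The count table did not measure every member, and none of the snoRNAs it names inside them had counts. It lists 139 snoRNA and scaRNA genes by name inside a member, and all 139 had 0 counts in all 30 libraries. Over the whole table, 0 of 615 snoRNA and scaRNA genes that lie wholly inside another gene on the same strand had counts, against 86 of 368 (23.4%) that share no base with one. Protein-coding genes behaved alike: 94.5% of 13365 with no overlap on their strand had counts, against 15.8% of 330 whose exons lie within the span of another gene but share under 10% of their length with its exons. Of 972 that lie wholly opposite another gene, 87.3% had counts. The table thus reads as counts over whole gene spans, introns included, from which reads in a stretch shared by genes of the same strand were left out. Spliced and unspliced host RNA cannot be told apart in it, and a member's value covers the part of its span that is free of other genes.

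That free part was under 25% in 6 members, and none of them passed the filter on low counts. SNHG3, SNHG4 and SNHG28 had 0% free and 0 counts. SNHG5 had 0.6997% free and 32 counts in all, SNHG32 had 0.911% and 17, and SNHG20 had 15.4% and 8. Low counts in so small a share of the span do not show how much of these RNAs the cells held. In SNHG20 the free part was 2033 bases, more than the 302 of SNHG25, which passed the filter. Whether SNHG20 was low in the cells was not tested. The limit of 25% was set after seeing the data, and the next member, SNHG21, had 34.9% free and 1877 counts. SNHG18 and SNHG27 were free over 98.4% and 99.3% of their spans and did not exceed 1 count in any library, so they were not detectable at this depth. The other 23 members passed the filter on low counts, and the results below cover these 23. The filter asks for enough counts in as many libraries as the smallest group holds, which is 3. A member seen in fewer libraries would not have passed it, but one seen in a single group could.

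**Figure D1:**
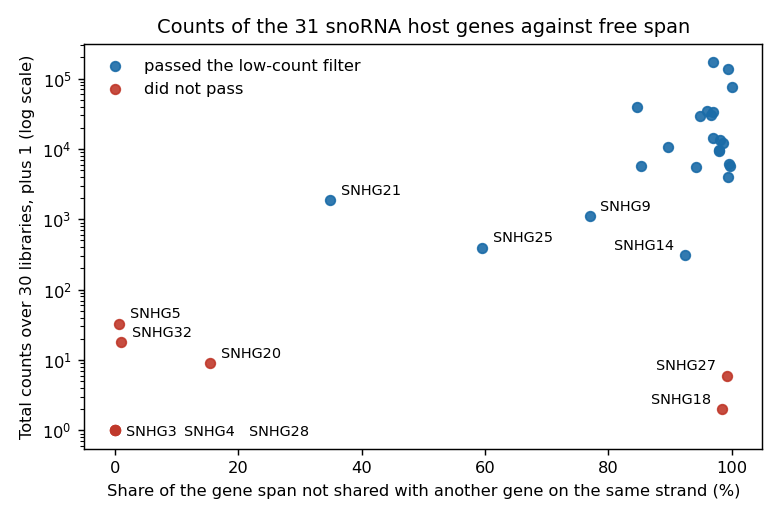
Total counts over the 30 libraries, plus 1 on a log scale, of the 31 host genes against the share of the gene span (%) that no other gene on the same strand covers. Blue points passed the filter on low counts and red points did not. The 6 members with under 25% free hold 32 counts or fewer, and SNHG18 and SNHG27 are low although their spans are free.

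Among the 23, the table names box C/D snoRNAs inside 9, box H/ACA snoRNAs inside 8, a scaRNA inside 3 (SNHG10, SNHG21 and SNHG22), and both kinds of snoRNA inside SNHG12 and SNHG25. GAS5, a well-known host of box C/D snoRNAs, had none named inside it, and 100% of its span was free. Whether its value holds reads of its own snoRNAs was not tested. SNHG14, whose span at chr15:24978583-25420336 holds 84 box C/D snoRNA genes, is the long transcript of the imprinted region next to SNRPN. The countable span of the 23 had a median of 6550 bases and ran from 302 (SNHG25) to 408249 (SNHG14), against a median of 28798 bases over all genes tested.

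Levels differed widely between members. In untreated WT cytosol, SNHG29 (chr17:16438767-16478678) was at 518 ± 11.2 CPM (SD, n = 3) and SNHG16 (chr17:76557764-76565348) at 488 ± 9.94. GAS5 (chr1:173858559-173868882), an RNA that accumulates in growth-arrested cells, was at 258 ± 11.1. ZFAS1 (chr20:49278178-49299600), antisense to the start of ZNFX1, was at 108 ± 7.98, and SNHG1 (chr11:62851984-62855953) at 97.2 ± 4.10. Per kilobase of countable span the order changed: SNHG16 led with 66.3 CPM per kb, then SNHG19 with 51.0, SNHG1 with 28.9, GAS5 with 25.0 and SNHG15 with 21.3. SNHG31, which spans 153395 bases, was at 0.0191 CPM per kb, and SNHG14 at 0.00143. Over a span with introns, a value per kb mixes dense exons with sparse introns.

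Because the host transcripts are known for TOP starts, the annotated starts of the members were read from RefSeq promoters (GRCh38.p14), which held 27 of the 31. At the start of 11 of the 27 (40.7%), a run of at least 5 C or T bases on the transcribed strand held the first transcribed base, against 9.602% of the 35116 entries in the table. A stricter form, in which the first base is C and the next 4 are C or T, was present in 7 (25.9%) against 4.07%. The run of at least 5 was present in SNHG1, SNHG4, SNHG5, SNHG7, SNHG8, SNHG12, SNHG18, SNHG19, SNHG26, SNHG32 and ZFAS1, of which 7 could be measured. The run may begin before the annotated start or end at it, as in SNHG8. The stricter form, which begins at the start itself as a TOP motif does, was present in 3 measured members, SNHG12, SNHG19 and ZFAS1. Each sequence shown has 15 bases before the annotated start and 25 from it, and capitals mark the run that holds the start. The first 4 have such a run and belong to members described in full below, and the last 2 have none.
SNHG1, chr11:62855861-62855900, minus strand: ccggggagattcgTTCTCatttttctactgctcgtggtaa
SNHG12, chr1:28581849-28581888, minus strand: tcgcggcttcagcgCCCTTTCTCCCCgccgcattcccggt
SNHG19, chr16:2155334-2155373, minus strand: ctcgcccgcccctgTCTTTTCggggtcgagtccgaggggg
ZFAS1, chr20:49278627-49278666, plus strand: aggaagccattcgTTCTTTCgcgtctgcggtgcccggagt
SNHG16, chr17:76557749-76557788, plus strand: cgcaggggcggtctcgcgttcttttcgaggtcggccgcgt
SNHG31, chr2:214810214-214810253, plus strand: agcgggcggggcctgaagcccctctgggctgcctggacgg
The run at SNHG12 was 12 bases long, at SNHG19 and ZFAS1 7, and at SNHG1 5. These are annotated starts, and gene counts do not show which start the cells used. The RefSeq start was the same base as the start in the count table for 7 of the 27 members and lay 250 bases or more away for 7, SNHG12 and ZFAS1 among them.

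Without arsenite, most host RNAs were poorer in the granule fraction than in cytosol, and a pair of them were much richer. In WT, 13 of the 23 were lower in granules and 3 higher, with a median log2 fold change of -1.02 against 0.07 over all 18141 genes tested. In that comparison 36.2% of all genes were called lower and 39.5% higher. In WDM, 15 were lower and 2 higher, with a median of -1.16 against 0.02 over all genes (35.3% of genes lower and 35.8% higher). The same 13 members were lower in both lines, and SNHG22 and SNHG31 were higher in both. None was called in opposite directions.

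SNHG31 was the member most enriched in granules. Its 3 WT granule libraries were at 22.1, 32.3 and 32.4 CPM and the matching cytosol libraries at 3.38, 1.38 and 1.500. The WDM granule libraries were at 37.7, 26.6 and 24.8 and the cytosol at 3.87, 1.53 and 4.02. The groups lay far apart, with log2 fold changes of 3.76 (SE 0.29, adjusted p = 5.04e-12) in WT and 3.17 (SE 0.28, adjusted p = 8.99e-11) in WDM. SNHG22, the host of a scaRNA, followed with 2.27 (SE 0.25) and 1.86 (SE 0.24). SNHG17 was called higher in WT alone, at 0.38 (SE 0.16, adjusted p = 0.0288) against -0.06 (SE 0.16) in WDM.

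The members lowest in WT granules were SNHG9, SNHG30 and SNHG6. SNHG9 (424 countable bases) was at -2.57 (SE 0.37) in WT and -2.37 (SE 0.38) in WDM, from 0.170 to 1.34 CPM in granules without arsenite. SNHG30 was at -2.46 (SE 0.17) and -1.80 (SE 0.16). SNHG6 was at -2.09 (SE 0.17) and -2.08 (SE 0.17), with 10.2, 7.76 and 15.9 CPM in WT granules against 42.5, 52.5 and 52.6 in WT cytosol. EPB41L4A-AS1, whose whole span lies opposite another gene and holds a box H/ACA snoRNA, was at -1.35 (SE 0.17) and -1.51 (SE 0.17).

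A middle set stood near equal in both fractions. SNHG1 was at -0.02 (SE 0.15) in WT and -0.02 (SE 0.15) in WDM, so that neither enrichment nor depletion was called before arsenite. SNHG12 was at 0.34 (SE 0.20) and -0.03 (SE 0.20). GAS5 was at -0.23 (SE 0.14, adjusted p = 0.148) in WT and -0.58 (SE 0.14, adjusted p = 7.53e-04) in WDM, and ZFAS1 at -0.22 (SE 0.19, adjusted p = 0.282) and -0.61 (SE 0.19, adjusted p = 0.00557), so each passed the test in WDM only. Whether the lines differ in enrichment without arsenite was not tested.

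Enrichment went with span length. Across the 23 members, the Pearson correlation of the log2 fold change with the log2 countable length was 0.57 in WT and 0.59 in WDM (Spearman rho 0.42 and 0.46), and across all genes tested it was 0.46 and 0.48. These are descriptions over genes that share the same libraries. With offsets for each library's relation of count to length, the members' median enrichment without arsenite moved to -0.35 in WT and -0.60 in WDM. GAS5 in WDM then came to 0.0090, with an adjusted p of 0.962, and ZFAS1 in WDM to -0.26, with 0.238. Nuclear-retained RNAs also stood high in the granule fraction. NEAT1, MALAT1 and KCNQ1OT1 summed to 2394 to 3586 CPM in granule libraries without arsenite and to 220.4 to 667 CPM in the matching cytosol, while RN7SK was at 0, with no free span. The part of nuclear RNA in the values of SNHG31 and SNHG22 was not tested.

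With arsenite, nearly the whole class was depleted from granules relative to cytosol. In WT, 20 of the 23 were lower in granules and 2 higher, with a median of -2.01 against 0.05 over all genes (35.5% of genes called lower and 35% higher). In WDM, 19 were lower and 2 higher, with a median of -2.19 against 0.06 (35.7% and 36.3%). All 19 were lower in WT too. SNHG31 and SNHG22 stayed called higher, at 1.44 (SE 0.26) and 0.68 (SE 0.25) in WT and 1.67 (SE 0.25) and 0.53 (SE 0.23) in WDM. SNHG14 passed in neither line, at 0.66 (SE 0.37) and -0.46 (SE 0.39). SNHG6 had the most negative values of the class, -3.48 (SE 0.19, adjusted p = 3.02e-15) in WT and -3.54 (SE 0.18, adjusted p = 1.59e-15) in WDM. With the length offsets the median was -1.40 in WT and -1.58 in WDM.

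**Figure D2:**
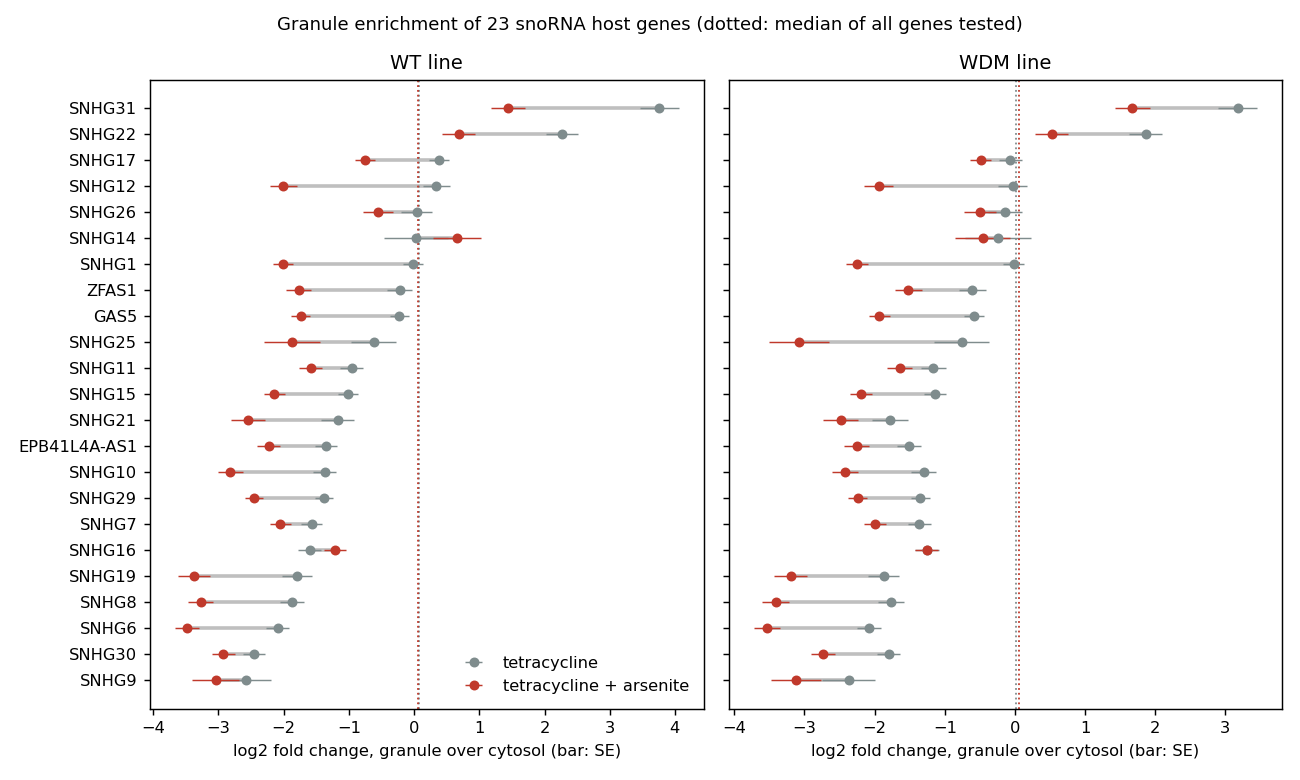
Log2 fold change of granule over cytosol (horizontal axis, bars are SE) for the 23 measured host genes, ordered by their WT value without arsenite, in the WT line (left) and the WDM line (right). Grey points are tetracycline alone, red points tetracycline with arsenite, and dotted lines the median of all genes tested. Red points lie left of grey for 21 members in WT and for all 23 in WDM.

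The next comparison addresses whether the other host genes share the drop in granule enrichment that SNHG1 showed with arsenite. The change was tested directly, as the difference between enrichment with and without arsenite. A loss of enrichment means that this change was called lower, also for members already poorer in granules without arsenite. In WT, 16 of the 23 members lost enrichment and 0 gained it, with a median change of -1.26 against -0.21 over all genes, of which 19.4% were called lower and 12% higher. In WDM, 16 lost enrichment and 0 gained it, with a median of -0.93 against -0.17 (16.5% lower and 7.66% higher). The class was proposed from SNHG1, so its own change is given only as a description. Without it, 15 of 22 members lost enrichment in each line, with medians of -1.20 in WT and -0.92 in WDM. The change was below 0 for 21 of 23 members in WT and 23 of 23 in WDM, against 60.5% and 60.1% of all genes.

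The lines called largely the same members. For no comparison was the share of all genes called in both lines counted, so such overlaps are descriptions only. EPB41L4A-AS1, GAS5, SNHG1, SNHG6, SNHG8, SNHG10, SNHG12, SNHG15, SNHG19, SNHG22, SNHG29, SNHG31 and ZFAS1 lost enrichment in both, 13 of the 19 called in either. SNHG11, SNHG17 and SNHG21 were called in WT only, and SNHG7, SNHG25 and SNHG30 in WDM only. The least stable of these calls was SNHG11 in WT, at -0.63 (SE 0.24), which held under 5 of 19 alternatives, with values of -0.78 to -0.43. It was lost with DESeq2, RLE factors, no filter on low counts or only the groups compared, and without any 1 of 10 of the 12 libraries. The call of SNHG7 in WDM, at -0.63 (SE 0.22), held under 9 of 19, with -0.77 to -0.53, and was lost without the filter, with only the groups compared and without any 1 of 8 libraries. The difference of the change between the lines was called for 0 of 23 members by edgeR and for 0 of all 18141 genes. At an unadjusted p under 0.05, 1 member and 1451 genes passed it. DESeq2 and every other alternative run for it also called 0 members, and the members' median difference was 0.15. The intervals are wide, as for SNHG17, whose change was -1.13 (SE 0.22) in WT and -0.43 (SE 0.22) in WDM, a difference of 0.71 (SE 0.31, adjusted p = 0.604). So the calls made in 1 line alone are not shown to differ between the lines.

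SNHG12, the host of 1 box C/D and 4 box H/ACA snoRNAs, had the largest loss in WT. Its granule libraries went from 24.2, 23.7 and 35.9 CPM to 8.78, 9.88 and 12.1 with arsenite in WT, and from 19.3, 23.3 and 23.6 to 9.84, 12.9 and 9.06 in WDM. Over the same treatment its cytosol libraries went from 19.2, 22.4 and 24.97 to 38.3, 37.9 and 47.5 in WT and from 16.9, 25.3 and 23.7 to 28.9, 53.2 and 36.3 in WDM. Granule levels fell and cytosol levels rose, without overlap in any of these pairs of groups. The change of enrichment was -2.35 (SE 0.29, adjusted p = 3.74e-06) in WT and -1.91 (SE 0.29, adjusted p = 6.27e-05) in WDM.

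SNHG1, the host of 7 box C/D snoRNAs named in the table, had the same shape. Its granule libraries went from 89.7, 79.4 and 127 CPM to 37.96, 35.5 and 33.4 in WT and from 96.5, 96.6 and 87.2 to 33.9, 31.4 and 24.4 in WDM. Its cytosol libraries went from 82.8, 103 and 113 to 138, 145 and 146 in WT and from 84.04, 97.8 and 95.5 to 116, 154 and 147 in WDM. No group with arsenite overlapped the one without. The change of enrichment was -1.99 (SE 0.22) in WT and -2.23 (SE 0.22) in WDM.

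GAS5 fell in granules, while its cytosol levels overlapped. Its granule libraries went from 175, 135 and 187 CPM to 58.5, 63.9 and 57.1 in WT and from 148, 167 and 158 to 66.1, 58.5 and 44.8 in WDM. In cytosol the groups overlapped, with 164, 211 and 203 CPM without and 186, 204 and 209.6 with arsenite in WT, and 220.4, 247 and 224 and 195, 194 and 239.8 in WDM. The change of enrichment was -1.51 (SE 0.20, adjusted p = 8.06e-06) in WT and -1.35 (SE 0.20, adjusted p = 6.24e-05) in WDM.

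ZFAS1 fell in granules from 52.1, 69.05 and 95.00 CPM to 29.1, 40.01 and 27.4 in WT and from 64.04, 47.6 and 51.6 to 44.04, 32.9 and 23.5 in WDM. Its cytosol libraries were at 75.9, 90.1 and 86.4 without and 104, 109 and 115 with arsenite in WT, and at 75.5, 84.99 and 82.3 and 86.4, 103 and 90.9 in WDM. The change of enrichment was -1.55 (SE 0.27, adjusted p = 1.25e-04) in WT and -0.91 (SE 0.27, adjusted p = 0.0131) in WDM. Without granule WDM arsenite replicate 3, the lowest of its group, the WDM value was -0.71 and no longer passed (adjusted p = 0.0534).

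EPB41L4A-AS1 had a smaller change. Its granule libraries went from 17.4, 13.8 and 22.2 CPM to 8.24, 10.6 and 10.7 in WT and from 15.2, 18.1 and 20.3 to 10.7, 11.7 and 8.302 in WDM. Both pairs of granule groups were apart, while cytosol levels stayed between 39.1 and 56.3 CPM over all 12 tetracycline-treated libraries. The change of enrichment was -0.88 (SE 0.24, adjusted p = 0.00689) in WT and -0.74 (SE 0.24, adjusted p = 0.0234) in WDM. The WT call was lost without granule WT tetracycline replicate 3 (-0.65, adjusted p = 0.0539). The WDM call was lost without any 1 of 5 libraries, with values of -0.70 to -0.61: replicate 1 of cytosol and replicate 3 of granule with tetracycline, and replicates 2 and 3 of cytosol and replicate 3 of granule with arsenite. It was also lost without the filter on low counts (-0.64, adjusted p = 0.0626).

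SNHG31 and SNHG22 lost part of their enrichment and remained the members richest in granules. SNHG31 went from the granule levels given above to 13.5, 16.1 and 12.2 CPM in WT and 21.7, 18.7 and 14.9 in WDM. In cytosol it reached 5.08, 4.98 and 5.36 in WT and 7.15, 5.21 and 4.49 in WDM. Its change of enrichment was -2.32 (SE 0.40, adjusted p = 1.15e-04) in WT and -1.50 (SE 0.38, adjusted p = 0.00454) in WDM. SNHG22 fell from 19.6, 18.6 and 21.6 CPM to 6.600, 7.47 and 4.804 in WT granules, and its change was -1.59 (SE 0.35) in WT and -1.34 (SE 0.33) in WDM.

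SNHG25 had the largest change in WDM, -2.31 (SE 0.60, adjusted p = 0.00569), on few reads. It did not exceed 29 counts in any library, and its WDM granule libraries went from 0.289, 0.773 and 0.787 CPM to 0.121, 0.162 and 0.103. In WT its change was -1.26 (SE 0.55, adjusted p = 0.0817).

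SNHG8, SNHG6 and SNHG19 were low in granules from the start and went lower. SNHG8 went from 12.3, 9.26 and 13.8 CPM to 3.11, 3.41 and 3.65 in WT granules, with a change of enrichment of -1.41 (SE 0.26) in WT and -1.64 (SE 0.26) in WDM. SNHG19 went from 5.45, 5.09 and 7.36 to 2.13, 1.69 and 1.16 CPM, with -1.58 (SE 0.33) and -1.33 (SE 0.32). SNHG6 had -1.39 (SE 0.25) and -1.46 (SE 0.24). The others called in both lines were SNHG10 (-1.45 and -1.12), SNHG15 (-1.13 and -1.05) and SNHG29 (-1.08 and -0.89).

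SNHG16 was the abundant exception. Its granule libraries were at 206, 182 and 166 CPM without and 209, 156 and 208 with arsenite in WT, and at 209.9, 283 and 279 and 156, 229 and 252 in WDM. The groups overlapped in both lines, and the change of enrichment was 0.39 (SE 0.24, adjusted p = 0.21) in WT and -0.01 (SE 0.24, adjusted p = 0.991) in WDM. SNHG9, SNHG14 and SNHG26 also passed in neither line. SNHG26 had -0.59 (SE 0.33) and -0.35 (SE 0.33). SNHG9 had -0.47 (SE 0.54) and -0.75 (SE 0.54), and SNHG14, with at most 35 counts in a library, had 0.64 (SE 0.63) and -0.22 (SE 0.61). For SNHG9 and SNHG14 the SE was 0.54 or more, and with an SE of that size SNHG25 in WT, at -1.26, was not called either.

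**Figure D3:**
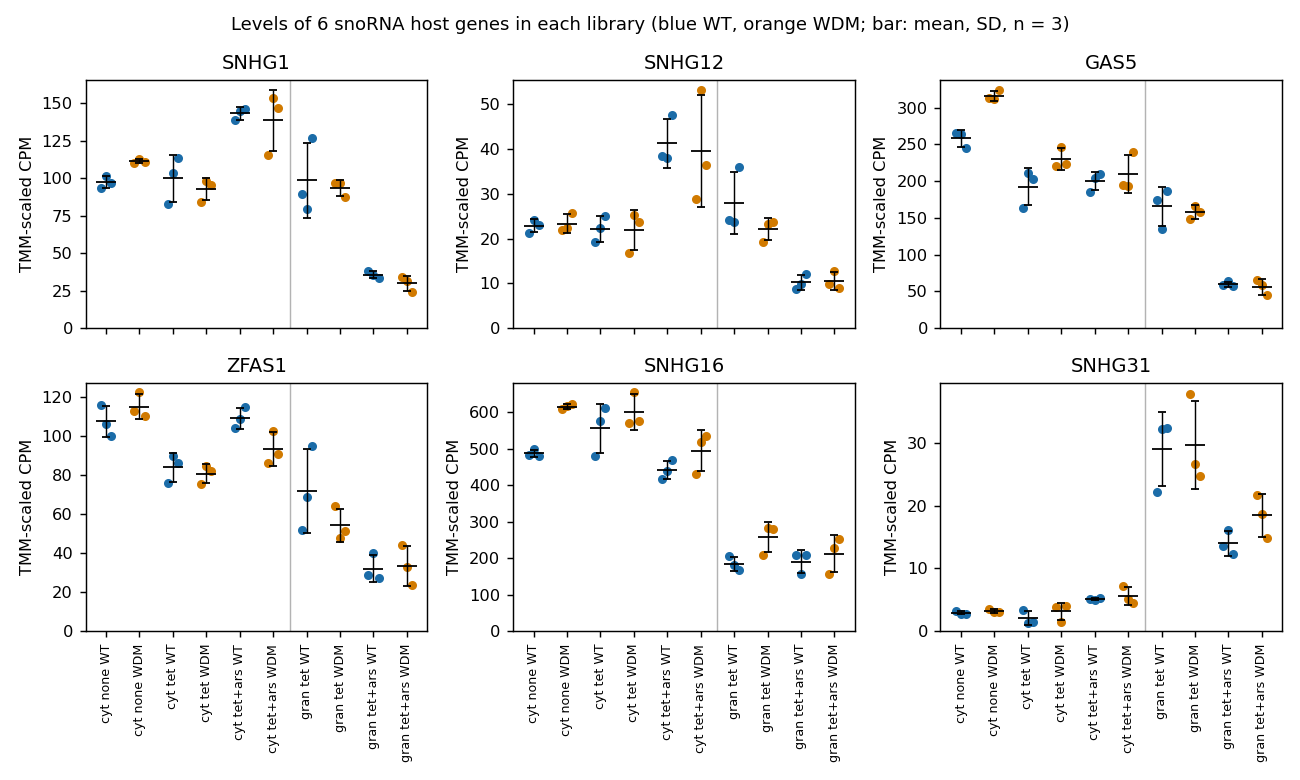
TMM-scaled CPM (vertical axes, from 0) of 6 host genes in each of the 30 libraries, cytosol left and granule right of the grey line, blue WT and orange WDM, with the mean and SD of 3 libraries as bars. The labels none, tet and tet+ars stand for untreated, tetracycline, and tetracycline with arsenite. SNHG1, SNHG12, GAS5 and ZFAS1 fall in granules with arsenite while SNHG16 overlaps its earlier range, and SNHG31 is the only 1 of the 6 shown that is higher in granules than in cytosol in both conditions.

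The granule side was then tested within the 12 granule libraries. In WT, 17 of the 23 members fell with arsenite and 1 rose, with a median of -1.07 against -0.03 over all 18366 genes tested (14.1% called lower and 16.5% higher). In WDM, 17 fell and 0 rose, with a median of -0.86 against 0.01 (17.7% lower and 18.7% higher). Without SNHG1, from which the class was proposed, 16 of 22 fell in each line, with medians of -1.01 in WT and -0.80 in WDM. With SNHG1 counted, the same 16 members fell in both lines. In each line, all 3 libraries with arsenite lay below all 3 without for 18 of the 23 members, as they did for 25.8% of all genes tested in WT and 26.4% in WDM. Summed over the 23, granule levels went from 966 to 1197 CPM down to 578 to 588 CPM in WT, and from 1016 to 1124 down to 609 to 637 CPM in WDM.

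SNHG25 fell most, with -1.96 (SE 0.45, adjusted p = 0.00168) in WT and -2.20 (SE 0.52, adjusted p = 0.00163) in WDM. Next came SNHG19, with -1.78 (SE 0.30, adjusted p = 8.29e-05) and -1.75 (SE 0.28, adjusted p = 3.73e-05), and SNHG8, with -1.69 (SE 0.23, adjusted p = 8.31e-06) and -1.70 (SE 0.23, adjusted p = 3.51e-06). SNHG1 had -1.37 (SE 0.17) and -1.57 (SE 0.17), GAS5 -1.37 (SE 0.16, adjusted p = 2.34e-06) and -1.41 (SE 0.16, adjusted p = 5.35e-07), and ZFAS1 -1.07 (SE 0.21, adjusted p = 4.96e-04) and -0.63 (SE 0.21, adjusted p = 0.0204). The ZFAS1 call in WDM was lost without replicate 1 of granule with tetracycline (-0.48), without replicate 2 (-0.62) or 3 (-0.44) with arsenite, and with library size alone as the scale (-0.56). EPB41L4A-AS1 had -0.75 (SE 0.20, adjusted p = 0.00508) and -0.73 (SE 0.19, adjusted p = 0.00441), and its WT call was lost without granule WT tetracycline replicate 3 (-0.58, adjusted p = 0.0647). SNHG14 rose in WT, 1.32 (SE 0.44, adjusted p = 0.0236), from 0.341, 0.417 and 0.6201 to 1.64, 0.683 and 1.26 CPM, and in WDM was at 0.01 (SE 0.46).

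In cytosol the class did not move one way. In WT, 6 of the 23 members rose with arsenite and 5 fell, with a median of -0.08 against -0.02 over all 16670 genes tested (13.7% called higher and 15.4% lower). In WDM, 6 rose and 6 fell, with a median of -0.07 against -0.00 (14.1% and 14.8%). Without SNHG1, 5 of 22 rose in each line. SNHG1, SNHG12, SNHG15, SNHG17 and SNHG31 rose in both lines, and SNHG10, SNHG16, SNHG29 and SNHG30 fell in both. The summed level was 1746 to 2202 CPM without and 1850.3 to 2039 CPM with arsenite in WT, and 1941 to 2250.0 and 1699 to 2098 CPM in WDM, so the sums overlapped.

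SNHG31 rose by 1.26 (SE 0.30, adjusted p = 0.00487) in WT and 0.81 (SE 0.28, adjusted p = 0.0336) in WDM, SNHG12 by 0.88 (SE 0.18, adjusted p = 0.00208) and 0.83 (SE 0.18, adjusted p = 0.00322), and SNHG17 by 0.65 (SE 0.10, adjusted p = 1.17e-04) and 0.53 (SE 0.10, adjusted p = 6.95e-04). SNHG1 rose by 0.51 (SE 0.11) and 0.58 (SE 0.11), given only as a description because the class was proposed from it. ZFAS1 rose in WT, 0.37 (SE 0.09, adjusted p = 0.00495), and in WDM was at 0.21 (SE 0.09, adjusted p = 0.0847). GAS5 was at 0.04 (SE 0.10) and -0.14 (SE 0.10), and EPB41L4A-AS1 at 0.01 (SE 0.12) and -0.08 (SE 0.12). The falls were smaller, from -0.52 for SNHG10 in WDM to -0.27 for SNHG29 in WT among the 4 called in both lines.

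The cytosol counts rested on single libraries and on which groups were fitted together. In WT the 11 calls became 6 without cytosol WT tetracycline replicate 2 and 15 without replicate 1, and in WDM the 12 became 6 without cytosol WDM tetracycline replicate 2. The call of SNHG31 in WDM was lost without that library (0.51, adjusted p = 0.182) and without cytosol WDM arsenite replicate 1 (0.59, adjusted p = 0.161). With only the groups compared fitted, it was lost too (0.82, adjusted p = 0.103), and the calls became 6 in WT and 5 in WDM. Of the nuclear-retained RNAs, KCNQ1OT1 rose in cytosol in both lines, by 1.37 (SE 0.21) and 1.37 (SE 0.21), and NEAT1 in WT, by 1.10 (SE 0.35), while MALAT1 passed in neither. Their sum was 220.4 to 517 CPM without and 521 to 567 CPM with arsenite in WT, and 341 to 667 and 546 to 794 CPM in WDM, where the groups overlapped. Their part in the rises of host RNAs was not tested.

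**Figure D4:**
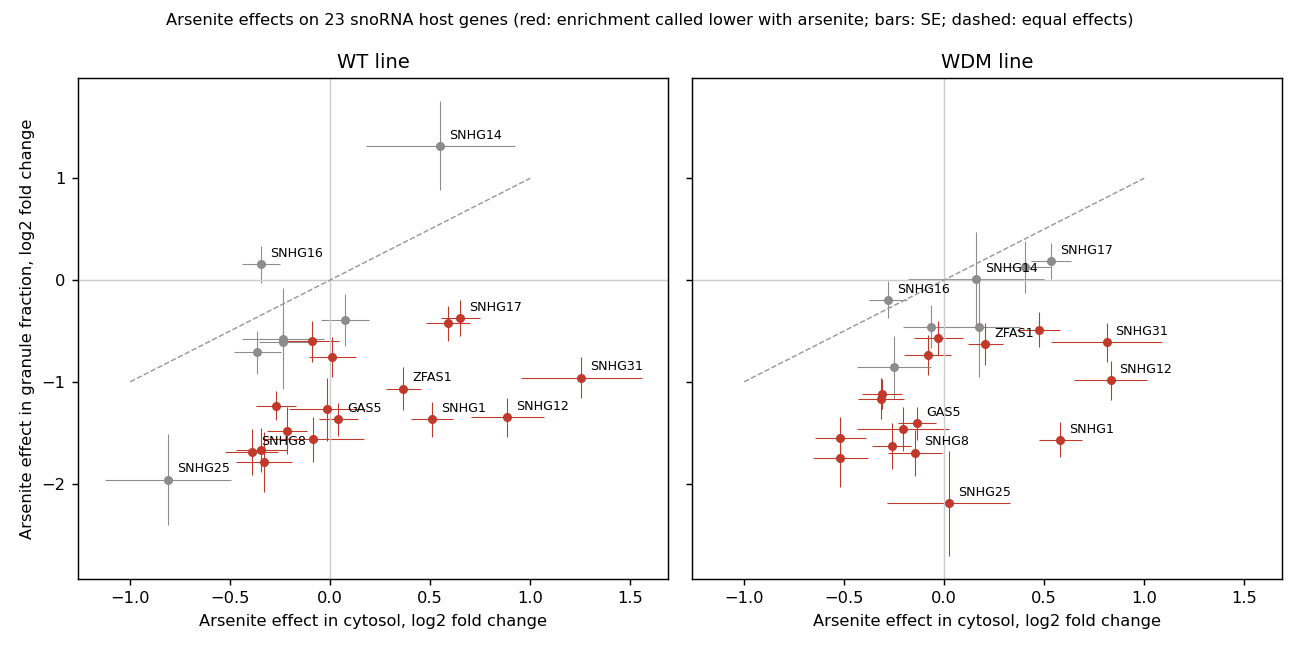
Log2 fold change with arsenite in the granule fraction (vertical) against that in cytosol (horizontal) for the 23 measured host genes, WT left and WDM right, with SE bars. Red members were called lower in the change of enrichment, grey ones were not, and the dashed line marks equal effects. Most members lie well below the line because their granule values are negative, while cytosol values lie on both sides of 0.

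Members lost enrichment both with and without pyrimidines at the annotated start. SNHG12, SNHG19 and ZFAS1, the 3 measured members with the stricter form, lost it in both lines, with medians of -1.58 in WT and -1.33 in WDM. Of the 16 other measured members whose RefSeq start was used, 11 lost it in WT and 10 in WDM, with medians of -1.10 and -0.82. Of the 7 measured members with a run of at least 5 pyrimidines at the annotated start, 5 lost enrichment in WT and 6 in WDM, with medians of -1.55 and -1.33. Of the 12 measured members whose annotated start has a shorter run or none, 9 and 7 did, with medians of -1.10 and -0.82. Of the members shown above without a run, SNHG31 lost enrichment in both lines and SNHG16 passed in neither. Sorted by the kind of small RNA inside, 5 of 9 box C/D hosts, 6 of 8 box H/ACA hosts and 3 of 3 scaRNA hosts lost enrichment in WT, and 6 of 9, 5 of 8 and 2 of 3 in WDM. SNHG1, from which the class was proposed, is counted among the 7 with a run and among the 9 box C/D hosts. No difference between these sets was tested. Of all genes, 19.4% lost enrichment in WT and 16.5% in WDM.

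The protein-coding genes that also host snoRNAs, most of them ribosomal proteins and translation factors, gave a nearby comparison from a list of 33, of which 31 could be tested. In WT, 12 lost granule enrichment with arsenite and 0 gained it, with a median of -0.52 against -0.21 over all genes. In WDM, 22 lost it and 0 gained it, with a median of -0.87 against -0.17. Over all genes, 19.4% lost enrichment in WT and 16.5% in WDM. TAF1D, a subunit of the RNA polymerase I factor SL1, had the largest change, -1.89 (SE 0.24) and -1.83 (SE 0.24), followed in both lines by the translation initiation factor EIF4A2 with -1.26 (SE 0.21) and -1.49 (SE 0.21). In granules 25 of the 31 fell in WT and 28 in WDM, against 14.1% and 17.7% of all genes. In cytosol 19 and 22 fell, against 15.4% and 14.8% of all genes, where the long non-coding hosts were divided. Before arsenite 28 of the 31 were already lower in granules than in cytosol in each line. Of all genes, 36.2% were so in WT and 35.3% in WDM.

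Most of the other long non-coding genes of the table were not called for the change of enrichment, but their median change lay below that of all genes. Of 3290 tested, 797 (24.2%) were called lower and 86 (2.61%) higher in WT, where 19.4% of all genes were lower and 12% higher. Their median was -0.78 against -0.21 over all genes. In WDM 468 (14.2%) were called lower and 70 (2.13%) higher, where 16.5% of all genes were lower and 7.66% higher. Their median was -0.45 against -0.17 over all genes. In granules their median was -0.18 in WT and 0.05 in WDM, and in cytosol 0.33 and 0.30. For the 23 host genes the corresponding medians were -1.07 and -0.86 in granules and -0.08 and -0.07 in cytosol. For protein-coding genes the median change of enrichment was -0.09 in WT and -0.10 in WDM. These are medians side by side, without a test between the classes.

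The genes that work on snoRNAs and on host transcripts were read from lists. Of 19 genes of snoRNP core and assembly proteins, 5 lost enrichment (26.3%, against 19.4% of all genes) and 1 gained it in WT, with a median of -0.20 against -0.21 over all genes. In WDM 6 lost it (31.6%, against 16.5%) and 0 gained it, with a median of -0.41 against -0.17. The WT median is that of all genes, and neither share was tested against them. NOP58, a core protein of box C/D particles, had -1.04 (SE 0.20, adjusted p = 3.43e-04) and -1.28 (SE 0.20, adjusted p = 9.95e-05), and NAF1, an assembly factor of box H/ACA particles, -1.04 (SE 0.28, adjusted p = 0.00588) and -1.17 (SE 0.28, adjusted p = 0.00302). NOLC1, a chaperone of snoRNP transport, was the gain in WT, 0.77 (SE 0.26, adjusted p = 0.0238). Fibrillarin (FBL), the methyltransferase of box C/D particles, was at 0.21 (SE 0.20) and 0.04 (SE 0.20), and dyskerin (DKC1), the pseudouridine synthase of box H/ACA particles, at 0.52 (SE 0.22) and 0.21 (SE 0.22). Of 9 measured nonsense-mediated decay factors from a list of 10, 3 lost enrichment in WT (UPF3B, UPF3A and SMG9) and 0 did in WDM, where 19.4% and 16.5% of all genes did, and 0 gained it in either. Their medians were -0.37 and -0.19. In cytosol with arsenite, 0 of the 9 changed in WT and 1 rose in WDM. UPF1, the helicase of that pathway, was at 0.13 (SE 0.20) and 0.47 (SE 0.20).

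Tetracycline, which induces the tagged protein, lowered 2 of the 23 members in cytosol in each line and raised 0. Over all genes, 2.39% were called lower and 2.93% higher in WT, and 3.23% and 3.07% in WDM. The 2 were GAS5 and ZFAS1 in both lines. GAS5 went from 266, 263 and 245 CPM to 164, 211 and 203 in WT and from 313, 311 and 324 to 220.4, 247 and 224 in WDM. All treated libraries lay below all untreated ones, with -0.43 (SE 0.10, adjusted p = 0.0152) and -0.46 (SE 0.10, adjusted p = 0.00674). ZFAS1 went from 116, 106 and 100.4 to 75.9, 90.1 and 86.4 in WT and from 113, 123 and 110.5 to 75.5, 84.99 and 82.3 in WDM, again without overlap, with -0.37 (SE 0.09, adjusted p = 0.022) and -0.52 (SE 0.09, adjusted p = 0.002). Induction and the drug itself cannot be told apart, since both lines carry an inducible transgene. The WT call of GAS5 was lost without untreated replicate 1 (-0.41) or 2 (-0.42). That of ZFAS1 was lost without untreated replicate 1 (-0.31) or 2 (-0.38) or tetracycline replicate 3 (-0.39), and both were lost when only the groups compared were fitted.

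Between the lines, the number of members called in cytosol depended on the fit. In untreated cytosol, 1 was higher in WDM and 0 lower in the fit of all 18 cytosol libraries, where 4.19% and 5.6% of all genes were called. With only the 6 untreated libraries fitted, 8 were higher and 1 lower, and with length offsets 7 were higher. The shares of all genes called in these alternative fits are not given here, so these counts are not read as a result about the members. The member called in the fit of all 18 was SNHG16, with 483, 499 and 481 CPM in WT and 608, 616 and 621 in WDM, a difference of 0.34 (SE 0.10, adjusted p = 0.0281). The call was lost without any single library of either group. With tetracycline, 0 were higher and 2 lower (5.8% and 6.84% of all genes), SNHG11 at -0.44 (SE 0.14, adjusted p = 0.0391) and SNHG26 at -0.40 (SE 0.12, adjusted p = 0.0364). SNHG11 was at 15.5, 21.7 and 25.1 CPM in WT and 14.3, 15.6 and 15.4 in WDM, groups that overlapped at 15.5 and 15.6 CPM. Its call was lost without any 1 of 4 of the 6 libraries, and that of SNHG26 without any 1 of 5. With arsenite, edgeR called 0 members in cytosol, against 4.98% of all genes called higher and 5.37% lower, and DESeq2 called 1 member. At an unadjusted p under 0.05 in edgeR, 4 of the 23 members and 3860 of the 16670 genes passed. SNHG11 was again lower there, at -0.42 (SE 0.14, adjusted p = 0.0523).

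In granules without arsenite, 1 member was higher in WDM and 0 lower. SNHG30, the host of a box C/D snoRNA, was at 7.32, 7.34 and 9.84 CPM in WT and 15.5, 13.2 and 13.6 in WDM, without overlap, with 0.76 (SE 0.21, adjusted p = 0.0248). Of all genes, 2.6% were called higher and 2.95% lower. The call of SNHG30 was lost without any 1 of 5 of the 6 libraries, with values between 0.68 and 0.81. With arsenite, edgeR called 0 members in granules, against 4.11% of all genes called higher and 3.84% lower, and DESeq2 called 0 members. At an unadjusted p under 0.05 in edgeR, 2 of the 23 members and 4450 of the 18366 genes passed. SNHG1 was at -0.28 (SE 0.17) there, GAS5 at -0.11 (SE 0.16) and ZFAS1 at 0.03 (SE 0.21).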

How the data were processed

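RNA of 30 libraries in 10 groups of 3 was measured as stranded total RNA after removal of ribosomal RNA, per the labels' protocols. The authors deposited 1 table of raw read counts per gene, with a column for each library. Trimmomatic, STAR, Picard, featureCounts and GRCh38 are named in the submitters' processing notes. The counting level, strand setting, annotation release and versions are not given in the sources used here. The way overlaps were counted was read from the values, with same-strand overlaps computed by bedtools 2.31.1 from the table's own coordinates. GENCODE v44 held 60463 of the 60664 identifiers.

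Total counts ran from 5906167 to 27419145. Between libraries of a group, the correlation of log2 CPM was 0.979 to 0.994 and chi-square over its degrees of freedom 1.63 to 40.7, so none was a repeat of another. This chi-square ratio was 1.63 to 3.65 between untreated libraries. It reached 24.2 in other cytosol groups and 40.7 in granule groups. Counts were tested with edgeR 4.0.16 (R 4.3.3) on the whole table: filterByExpr (minimum count 10, minimum total 15), TMM factors, a group-means model and the robust quasi-likelihood F-test, adjusted by Benjamini-Hochberg. The 24 libraries of tetracycline-treated cells (18141 genes) gave the 7 comparisons that involve both fractions, the 18 cytosol libraries (16670 genes) 7, and the 12 granule libraries (18366 genes) 4. An SE is the absolute log2 fold change over the square root of F. The procedure was tested on simulated data.

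Members named in full were SNHG1, GAS5, ZFAS1, EPB41L4A-AS1 and, in each family of comparisons, the 3 called members of largest absolute log2 fold change. Others were chosen after their values were seen. The members and lists were chosen with earlier results of these data known. The alternatives tried were DESeq2 1.42.0, scaling by RLE factors or by library size alone, all genes with a count, the replicate number as a block, offsets for countable length, only the groups compared, and each library left out in turn. No start sequence was used for 4 members (SNHG6, SNHG9, SNHG15 and SNHG25). Entries on chromosome 8, which holds SNHG6, were left out for the members, so SNHG6 is not shown to lack a RefSeq entry.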

Additional observations from a re-analysis of the deposited data

How the results depend on the processing

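The counts of members called for granule against cytosol, for the change of enrichment and for arsenite in granules stayed within 1.5 times under each alternative run. Leaving out 1 library gave 13 to 17 calls in WT and 13 to 16 in WDM for the change of enrichment (fewest without granule WT tetracycline replicate 3 and granule WDM arsenite replicate 3), and 13 to 18 and 13 to 17 for arsenite in granules. Of 948 values of 67 results for single members, 904 kept their direction and side of the threshold, 43 fell below it and 1 reversed: GAS5 in WDM without arsenite, -0.58 in granules against cytosol, came to 0.0090 with length offsets.

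Comparisons within cytosol were less stable, and the cause was not tested. Arsenite in WT cytosol (11 calls) gave 6 with library size alone, 6 with only the groups compared, and 6 to 15 with a library left out. In WDM (12 calls) it gave 5 with only the groups compared and 6 to 12. Tetracycline (2 calls in each line) gave 0 in WT with only the groups compared and 0 to 3 with a library left out, and 2 to 3 in WDM. WDM against WT untreated (1 call) gave 3 with library size alone, 3 without a filter, 2 with DESeq2, 7 with length offsets, 9 with only the groups compared, and 0 with any 1 library left out. With tetracycline (2 calls) it gave 1 with library size alone, 0 with only the groups compared and 0 to 4. With arsenite (0 calls) it gave 1 with RLE factors, library size alone, no filter, DESeq2, length offsets or only the groups compared, and 0 to 4. In granules it gave 2 with length offsets without arsenite (1 call, 0 to 1 with a library left out) and 0 to 1 with arsenite (0 calls). The shares of all genes called under these alternatives are not given here, so the counts show only how far the calls moved.

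The replicate numbers were checked for pairing. Deviations from group means in cytosol and granule libraries of the same line, treatment and number correlated by -0.11 to 0.60 (median 0.20, 7 of 12 over 0.1), against -0.39 to 0.19 between different numbers of the same groups (median -0.07, 2 of 24 over 0.1). Of the 24 libraries, 17 correlated best with their own number in the other fraction. This is a hint of pairing from the data, but not every pair was over 0.1 and the labels give the number no meaning, so the fits without a block were kept. With the replicate number as a block, tetracycline in WDM gave 5 calls, and WDM against WT in cytosol gave 3 untreated, 4 with tetracycline and 2 with arsenite, and no other count moved by over 1.5 times. Depth limited SNHG25 and SNHG14, which did not exceed 29 and 35 counts in any library.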
